A study of Mus musculus with 3 samples.

Results

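The splicing of 8 genes of the splicing machinery was followed through the hippocampus of 3 mice. The genes were U2af1, Rnpc3, Prpf19, Scnm1, Luc7l, Luc7l2, Luc7l3 and Bclaf1. All events of these 8 genes in the deposited splicing tables were taken, which gave 22 events, against 4860 genes with an event in the series as a whole. The genes were chosen on measured splicing differences between these same libraries, so their differences are given as a description and no p-value is attached to any of them. The question behind the comparisons was whether an expanded CUG repeat alters splicing in the hippocampus and what a repeat-binding compound does to it.

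The mice were wild-type C57BL/6J animals, 10 weeks old, and each had received adeno-associated virus serotype 9 in the CA1 region on both sides. The virus carried a CTG repeat in the 3′-UTR of an Egfp reporter mRNA, so every animal, the control included, expressed a CUG repeat RNA from the vector. CUG10 mice given vehicle received the short repeat (10 units), CUG300 mice given vehicle received the long repeat (300 units), and the third group received the long repeat with CWG-cPIP, a cyclic pyrrole-imidazole polyamide that binds CAG/CTG repeat DNA. The repeat was delivered to the dissected tissue by injection, so transduced and other cells were measured together. Each group was 1 mouse and 1 library. No test of the treatment was therefore possible, and every interval below is a 95% interval that covers the counting of reads only, not the spread between mice. Where 3 values follow each other, they are in the order CUG10 with vehicle, CUG300 with vehicle, CUG300 with CWG-cPIP.

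Splicing of a pre-mRNA begins when splice sites are recognised. U1 snRNP binds the 5′ splice site, and Luc7 proteins, of which Luc7l, Luc7l2 and Luc7l3 are the mouse members, associate with it. U2af1 encodes the small subunit of the U2 auxiliary factor, which contacts the AG at the end of the intron. Prpf19 encodes the core of the Prp19 complex, which takes part in activating the assembled spliceosome. Rnpc3 encodes a protein of the U11/U12 particle of the minor spliceosome, which removes a small class of introns. Scnm1 was found in mice as a modifier of a splice-site mutation in a sodium channel gene. Bclaf1 encodes a nuclear protein rich in arginine and serine that is related to the splicing-associated protein TRAP150. Transcripts of such genes are themselves alternatively spliced, and expanded CUG RNA is known to hold muscleblind-like splicing regulators in nuclear foci.

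The alternative segments that the results turn on are shown first, in lower case and 5′ to 3′ on the transcribed strand, from the GENCODE M21 transcripts (GRCm38, the assembly named mm10 by the deposited tables). The pair of 67-nt exons of U2af1 lies at chr17:31652502-31652568 for the exon that comes upstream in the transcript and chr17:31651646-31651712 for the one downstream, both on the minus strand and coding. Capitals mark the bases that differ between them. The 30-nt exon of Luc7l2 is at chr6:38598785-38598814 on the plus strand, the 147-nt exon of Bclaf1 at chr10:20334499-20334645 on the plus strand, and the 57-nt extension of a Prpf19 exon at chr19:10898926-10898982 on the plus strand, all coding. In the Prpf19 extension the capitals mark its last 2 bases, the AG that precedes the downstream one of its alternative 3′ splice sites.
U2af1 67-nt exon, upstream in the transcript: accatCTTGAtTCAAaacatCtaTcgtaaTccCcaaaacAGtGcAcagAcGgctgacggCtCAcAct
U2af1 67-nt exon, downstream in the transcript: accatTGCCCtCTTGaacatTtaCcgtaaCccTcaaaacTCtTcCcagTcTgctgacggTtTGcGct
Luc7l2 30-nt exon: gtcccgatcacatagcaagaatcccaaaag
Bclaf1 147-nt exon: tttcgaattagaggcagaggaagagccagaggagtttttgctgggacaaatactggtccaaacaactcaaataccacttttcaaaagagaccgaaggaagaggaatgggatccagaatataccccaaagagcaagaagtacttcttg
Prpf19 57-nt extension: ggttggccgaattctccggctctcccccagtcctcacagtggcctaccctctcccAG

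The U2af1 exons were identical at 44 of 67 bases (65.7%), and the proteins annotated with either one were both 239 residues long and differed at 7 residues. The Luc7l2 exon and the Bclaf1 exon keep the reading frame. The Prpf19 extension adds 19 codons and was held by 1 annotated transcript, Prpf19-203, whose protein has 523 residues. Of its 57 bases, 38 were C or T, and of the 20 bases before the final AG, 14 were.

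Counts came from rMATS tables, in which each event has a number of reads that support the form with the alternative segment (inclusion) and a number that support the form without it (skipping). The percent-spliced-in value (PSI, here a fraction from 0 to 1) is the inclusion count over its effective length divided by the sum of both counts over their lengths. An event was called past the size rule when the table of a comparison listed it, both libraries held at least 20 counts and their PSI differed by more than 0.15. The 22 events were 14 skipped exons (SE), 5 alternative 3′ splice sites (A3SS), 2 mutually exclusive exon pairs (MXE) and 1 retained intron (RI), with none at an alternative 5′ splice site (A5SS). U2af1 had 9 of them, Luc7l 3, Rnpc3, Scnm1, Luc7l2 and Bclaf1 2 each, and Prpf19 and Luc7l3 1 each. For 21 events all 3 libraries had counts, and 13 events of 6 genes held at least 20 counts in each library. The 16 different alternative segments ran from 3 to 1652 nt. Coding sequence was annotated in 12 of them, of which 7 had a length divisible by 3, and 3 segments, all of Luc7l, were in no coding transcript.

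Several features of the libraries moved together with the groups. Over the 7659 events with counts in all 3 libraries, the CUG10 + vehicle library held 609546 counts, the CUG300 + vehicle library 567697 and the CUG300 + CWG-cPIP library 560672, but the median count per event was 22, 13 and 24. Summed choroid plexus markers (3 of 9 measured, Ttr, Enpp2 and Otx2) were at 783, 71300 and 721 CPM (counts at events, scaled to a total of 1000000 per library), and microglial and immune markers (6 of 14 measured) at 2830, 19900 and 4920 CPM. Neuronal markers (8 of 11 measured, all 8 lower in CUG300 + vehicle than in CUG10 + vehicle) were at 12200, 5660 and 11500 CPM, so neuronal genes were measured in every library of this brain tissue. Single neuronal markers did not all move like this sum. Snap25 was at 6340, 1820 and 6390, Nrgn at 2540, 2270 and 1410, and Camk2a at 281, 49.3 and 669. Oligodendrocyte markers (4 of 8 measured, 1 of the 4 higher in CUG300 + vehicle than in CUG10 + vehicle) were at 8770, 7320 and 9760 CPM. Astrocyte markers (3 of 8 measured) were at 663, 1460 and 1270, a sum carried by Gfap (518, 1400 and 961), the 1 of the 3 that was higher in CUG300 + vehicle than in CUG10 + vehicle. Endothelial and mural markers (2 of 7, both lower in CUG300 + vehicle than in CUG10 + vehicle) were at 47.6, 29.9 and 55.3. Counts were also placed differently along genes. In 438 genes with events at least 1000 bases apart, the event nearest the 3′ end had gained counts over the event nearest the 5′ end in 295 genes (67.4%) from CUG10 + vehicle to CUG300 + vehicle, by a median of 0.20 on the log2 scale, and in 128 genes (29.2%) from CUG300 + vehicle to CUG300 + CWG-cPIP, with a median of -0.24. From CUG10 + vehicle to CUG300 + CWG-cPIP it had done so in 175 genes (40.0%), with a median of -0.11. The part of tissue composition and of position along the transcript in the values that follow was not tested, and in a whole tissue fewer cells of a type and less RNA per cell cannot be told apart.

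U2af1 had the most events, all of them on 5 neighbouring exons. In transcript order these were a 102-nt exon, an 88-nt exon, the upstream 67-nt exon, the downstream 67-nt exon and a 50-nt exon. Of 3 annotated coding transcripts, 2 hold the 88-nt exon and exactly 1 of the 67-nt exons, U2af1-201 the downstream one and U2af1-202 the upstream one. None holds both.

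The choice within the 67-nt pair was measured by a mutually exclusive event in which inclusion means the upstream exon. The inclusion and skipping counts were 17 and 63 in the CUG10 + vehicle library, a PSI of 0.213 (0.129 to 0.318). They were 31 and 87 in the CUG300 + vehicle library, a PSI of 0.263 (0.186 to 0.352). They were 24 and 49 in the CUG300 + CWG-cPIP library, a PSI of 0.329 (0.223 to 0.449). The downstream exon was thus the major form in every library and the intervals of the 3 libraries overlapped. The differences were 0.05 (-0.07 to 0.17) between the vehicle libraries, 0.07 (-0.06 to 0.20) from CUG300 + vehicle to CUG300 + CWG-cPIP and 0.12 (-0.02 to 0.25) from CUG10 + vehicle to CUG300 + CWG-cPIP, none of them past 0.15.

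The other mutually exclusive event set the 88-nt exon against the downstream 67-nt exon, with the 102-nt and 50-nt exons on either side. Its counts were 31 and 33 in CUG10 + vehicle, a PSI of 0.45 (0.326 to 0.579). They were 17 and 42 in CUG300 + vehicle, a PSI of 0.261 (0.158 to 0.387). They were 47 and 19 in CUG300 + CWG-cPIP, a PSI of 0.683 (0.553 to 0.795). The CUG300 + vehicle library was lowest and the CUG300 + CWG-cPIP library highest, and the intervals of those 2 did not overlap. The difference between the vehicle libraries was -0.19 (-0.34 to -0.02), and that from CUG300 + vehicle to CUG300 + CWG-cPIP was 0.42 (0.25 to 0.56). The pair of CUG10 + vehicle and CUG300 + CWG-cPIP did not list this event. From the counts in the other tables its difference there was 0.23 (0.06 to 0.39), over 0.15 at a sufficient depth, and it is not in the count of events for that pair.

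Because the 9 events share exons and junctions, their counts could be resolved into single junctions and exons, and all 27 equations that link them held exactly. Reads that join the 88-nt exon directly to the 50-nt exon, the only reads that show the 88-nt exon without either 67-nt exon, numbered 0, 1 and 0 in the 3 libraries. Reads that join the 102-nt exon directly to the downstream 67-nt exon, which show that exon without the 88-nt exon, numbered 2, 1 and 1. By contrast, 32, 46 and 31 reads joined the 88-nt exon to the downstream 67-nt exon, and so contained both exons of the listed pair. The PSI of this event was carried by reads inside the 88-nt exon or on its junction to the 102-nt exon (31, 16 and 47) and by reads inside the downstream 67-nt exon or on its junction to the 50-nt exon (31, 41 and 18). Both exons are part of the annotated transcript U2af1-201, in which the 88-nt exon comes first. The PSI of this event was thus mainly a ratio of reads at 2 exons that are spliced together, not a measure of a choice between them. With the reads of both 67-nt exons added (39, 54 and 34), the reads of the 88-nt exon were 0.795, 0.296 and 1.38 times as many.

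**Figure D1:**
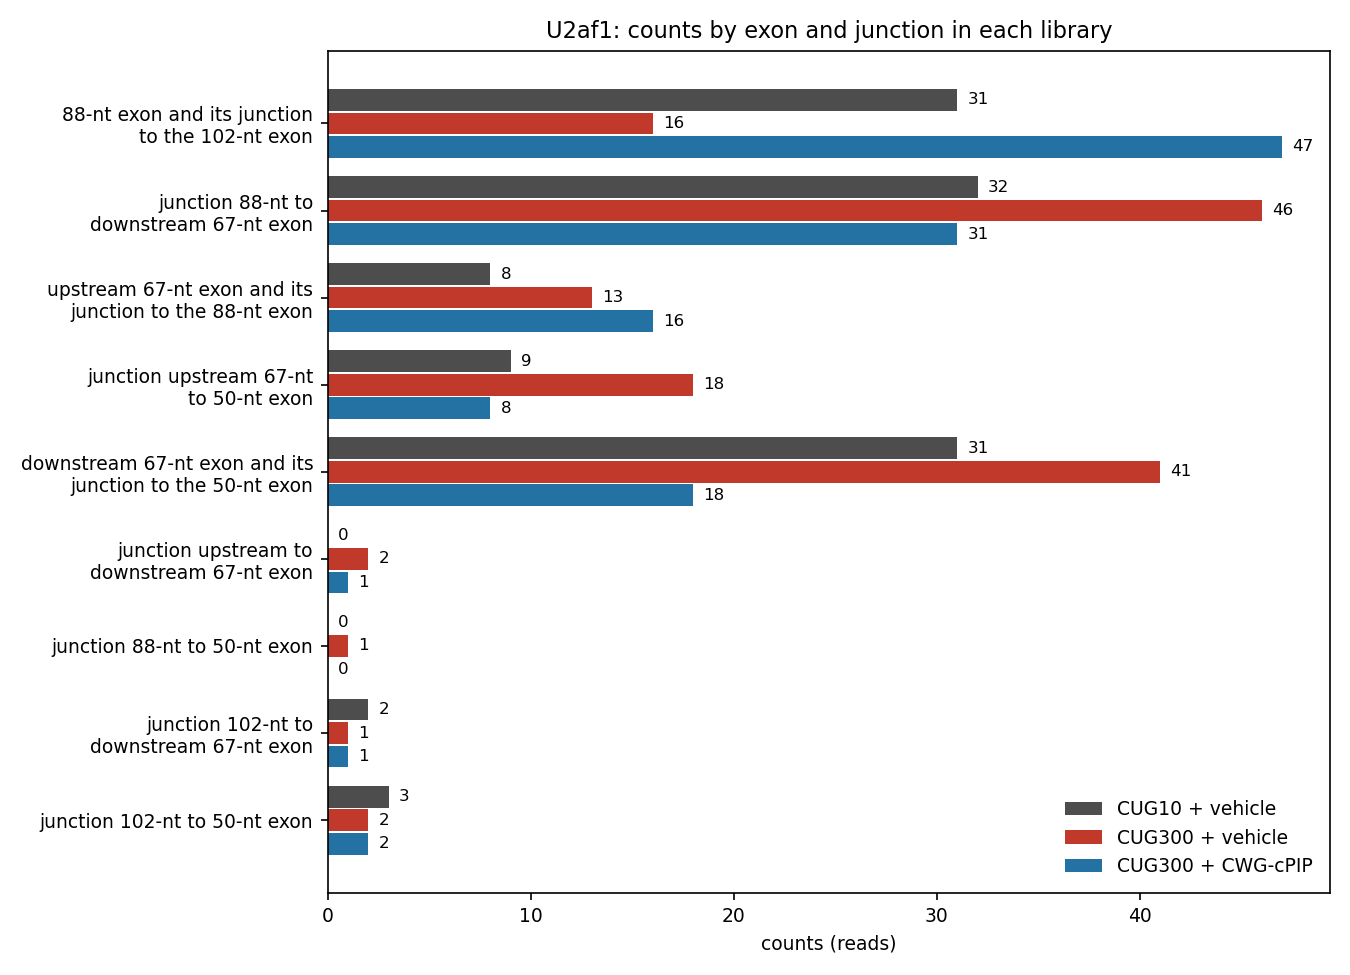
Counts at the U2af1 exons and junctions in each library, obtained from the counts of 9 overlapping events, with bars for CUG10 + vehicle (grey), CUG300 + vehicle (red) and CUG300 + CWG-cPIP (blue) and the count printed at each bar. The junction of the 88-nt to the 50-nt exon holds 0, 1 and 0 reads, whereas the 88-nt exon with its junction to the 102-nt exon holds 31, 16 and 47.

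Junction reads that belong to only 1 exon of the 67-nt pair gave a measure free of reads inside exons. The upstream exon was joined to the 50-nt exon by 9, 18 and 8 reads, and the downstream exon to the 88-nt exon by 32, 46 and 31 reads. The share of the upstream exon among these was 0.22 (0.106 to 0.376) in CUG10 + vehicle, 0.281 (0.176 to 0.408) in CUG300 + vehicle and 0.205 (0.093 to 0.365) in CUG300 + CWG-cPIP. The differences were 0.06 (-0.11 to 0.22) between the vehicle libraries, -0.08 (-0.23 to 0.10) from CUG300 + vehicle to CUG300 + CWG-cPIP and -0.01 (-0.19 to 0.17) from CUG10 + vehicle to CUG300 + CWG-cPIP. The second and the third of these had the opposite sign to the difference of the full event, and the intervals of all of these differences included 0. The upstream exon was read at the junction after it and the downstream exon at the junction before it. The share is therefore not matched for position along the transcript, and the part of position was not tested. Reads that joined the upstream to the downstream 67-nt exon, and so showed both in 1 transcript, numbered 0, 2 and 1, and reads that joined the 102-nt to the 50-nt exon numbered 3, 2 and 2.

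The remaining U2af1 events were skipped-exon readings of the same reads. The downstream 67-nt exon between the 50-nt and the upstream 67-nt exon had a PSI of 0.644 (0.457 to 0.812) in CUG10 + vehicle, 0.556 (0.415 to 0.698) in CUG300 + vehicle and 0.555 (0.343 to 0.767) in CUG300 + CWG-cPIP. The upstream 67-nt exon between the downstream one and the 88-nt exon had a PSI of 0.116 (0.05 to 0.225), 0.146 (0.082 to 0.238) and 0.223 (0.13 to 0.349) in the same order. The downstream exon between the 50-nt and 102-nt exons was at 0.852, 0.917 and 0.833, and between the 50-nt and 88-nt exons at 1.0, 0.979 and 1.0. The 88-nt exon between the downstream 67-nt exon and the 102-nt exon was at 0.935, 0.966 and 0.973. None of these 5 events was past 0.15 in any comparison. Of the last 2 events, each under 20 counts in 1 library, the upstream 67-nt exon between the 50-nt and 88-nt exons was at 1.0, 0.942 and 1.0 and the 88-nt exon between the 50-nt and 102-nt exons at 0.825, 0.795 and 0.915. The 4 events that require a read from the 88-nt to the 50-nt exon were the 4 that the pair without CUG300 + vehicle did not list, and the single such read was in CUG300 + vehicle.

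At the 3′ splice site of the last exon of Rnpc3, a segment of 1652 nt at chr3:113605648-113607299 on the minus strand was kept or left out. The annotated coding sequence ends at base 113608358, upstream of the segment, so both forms lie in the 3′-UTR and leave the protein unaltered. Inclusion and skipping counts were 62 and 10 in CUG10 + vehicle, a PSI of 0.21 (0.119 to 0.368). They were 34 and 10 in CUG300 + vehicle, a PSI of 0.127 (0.066 to 0.249). They were 103 and 2 in CUG300 + CWG-cPIP, a PSI of 0.688 (0.373 to 0.949). The CUG300 + CWG-cPIP library stood above both vehicle libraries, whose intervals overlapped each other, and its interval did not overlap theirs. The difference was -0.08 (-0.22 to 0.05) between the vehicle libraries, 0.56 (0.23 to 0.77) from CUG300 + vehicle to CUG300 + CWG-cPIP and 0.48 (0.14 to 0.70) from CUG10 + vehicle to CUG300 + CWG-cPIP.

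The Rnpc3 value rested on few skipping reads and on the length term. The inclusion form is 1726 nt of effective length and the skipping form 74, so 10, 10 and 2 skipping reads set the scale. As a plain share of reads, inclusion was 0.861, 0.773 and 0.981, and the differences from CUG300 + CWG-cPIP shrank to 0.21 against CUG300 + vehicle and 0.12, no longer past the threshold, against CUG10 + vehicle. The annotation ends 1 Rnpc3 transcript, Rnpc3-202, inside the segment, at base 113606336. It also places the first exon of an Amy1 transcript, Amy1-205, on the same strand over 1052 of its bases, and reads of these cannot be told from those of the long form. A 3-nt choice at another Rnpc3 exon (chr3:113608409-113608411), inside the coding sequence, held 9, 11 and 5 counts and PSI of 0.771, 1.0 and 1.0.

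Prpf19 showed its lowest inclusion with CWG-cPIP. Counts for the 57-nt extension were 35 and 22 in CUG10 + vehicle, a PSI of 0.473 (0.339 to 0.617), and 8 and 10 in CUG300 + vehicle, a PSI of 0.311 (0.134 to 0.56), where the total of 18 was under the minimum. They were 18 and 53 in CUG300 + CWG-cPIP, a PSI of 0.161 (0.096 to 0.25). The intervals of CUG10 + vehicle and CUG300 + CWG-cPIP did not overlap, and that of CUG300 + vehicle spanned the gap. From CUG10 + vehicle to CUG300 + CWG-cPIP, the only comparison deep enough, the difference was -0.31 (-0.46 to -0.16). The CUG300 + vehicle value lay between those of the other libraries, so its differences had the same sign in both of its comparisons, -0.16 (-0.37 to 0.09) from CUG10 + vehicle and -0.15 (-0.37 to 0.03) to CUG300 + CWG-cPIP.

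The 89-nt exon of Scnm1 (chr3:95132825-95132913, minus strand), whose length is not divisible by 3, also moved one way across the libraries. Counts were 24 and 6 in CUG10 + vehicle, a PSI of 0.645 (0.42 to 0.845). They were 35 and 4 in CUG300 + vehicle, a PSI of 0.799 (0.587 to 0.939). They were 23 and 0 in CUG300 + CWG-cPIP, a PSI of 1.0 (0.723 to 1.0). All 3 intervals overlapped. The differences were 0.15 (-0.11 to 0.40), 0.20 (-0.09 to 0.41) and, from CUG10 + vehicle to CUG300 + CWG-cPIP, 0.36 (0.04 to 0.57). As plain shares of reads they were 0.10, 0.10 and 0.20, of which the first 2 were no longer past the threshold. The neighbouring 195-nt exon (chr3:95130164-95130358), which holds 163 coding bases and the stop codon of Scnm1-201, was at 0.746 (0.561 to 0.892), 0.801 (0.664 to 0.905) and 0.858 (0.612 to 0.981) from counts of 64 and 6, 117 and 8, and 44 and 2. It followed the same order without passing 0.15 in any comparison.

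Among the Luc7 genes, the 30-nt exon of Luc7l2 shown above was the variable one. Counts were 29 and 23 in CUG10 + vehicle, a PSI of 0.473 (0.334 to 0.619). They were 8 and 18 in CUG300 + vehicle, a PSI of 0.24 (0.106 to 0.433). They were 56 and 27 in CUG300 + CWG-cPIP, a PSI of 0.596 (0.478 to 0.708). The CUG300 + vehicle library was lowest, and its interval overlapped that of CUG10 + vehicle but not that of CUG300 + CWG-cPIP. The differences were -0.23 (-0.41 to -0.015) between the vehicle libraries, 0.36 (0.15 to 0.51) from CUG300 + vehicle to CUG300 + CWG-cPIP and 0.12 (-0.05 to 0.29) from CUG10 + vehicle to CUG300 + CWG-cPIP. A 95-nt exon near the start of Luc7l2 (chr6:38570510-38570604, plus strand) was included by nearly every read, with counts of 22 and 1, 7 and 0, and 36 and 0 and PSI of 0.906, 1.0 and 1.0.

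The 141-nt exon of Luc7l3 (chr11:94293138-94293278, minus strand, coding) was included by nearly every read. Counts were 184 and 0, 221 and 1, and 105 and 1, for PSI of 1.0 (0.944 to 1.0), 0.987 (0.931 to 1.0) and 0.973 (0.864 to 0.999). The largest of its 3 differences was -0.03 (-0.14 to 0.03), so a change of more than 0.15 in either direction lay outside its counting interval.

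Luc7l was too shallow to place. Its 3 events share reads in the first intron (plus strand) around a 71-nt exon at chr17:26253974-26254044, which the annotation gives to no coding transcript. The 1057-nt extension of the next exon had counts of 8 and 3, 6 and 0, and 31 and 5, for PSI of 0.149 (0.04 to 0.505), 1.0 (0.072 to 1.0) and 0.289 (0.135 to 0.572). The 986-nt retained intron had counts of 8 and 2, 6 and 1, and 31 and 0, and the 71-nt exon had counts of 2 and 3, 1 and 0, and 0 and 5. The inclusion reads of the extension and of the retained intron were equal in number in every library, and no difference of a Luc7l event met the depth minimum.

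The 147-nt exon of Bclaf1 was included by every read in CUG10 + vehicle, with counts of 98 and 0 and a PSI of 1.0 (0.897 to 1.0). Counts were 49 and 5 in CUG300 + vehicle, a PSI of 0.766 (0.568 to 0.913), and 61 and 1 in CUG300 + CWG-cPIP, a PSI of 0.953 (0.779 to 0.999). Skipping was most frequent in CUG300 + vehicle, where it rested on 5 reads, and the intervals overlapped. The difference was -0.23 (-0.43 to -0.07) between the vehicle libraries, 0.19 (-0.03 to 0.38) from CUG300 + vehicle to CUG300 + CWG-cPIP and -0.05 (-0.22 to 0.07) from CUG10 + vehicle to CUG300 + CWG-cPIP. As plain shares of reads, without the length term, the first 2 were -0.09 and 0.08, no longer past the threshold. The exon is held by 2 coding transcripts and codes along its whole length. A 6-nt choice at another Bclaf1 exon held 2 counts with the short repeat and 5 with CWG-cPIP and was not listed for CUG300 + vehicle.

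**Figure D2:**
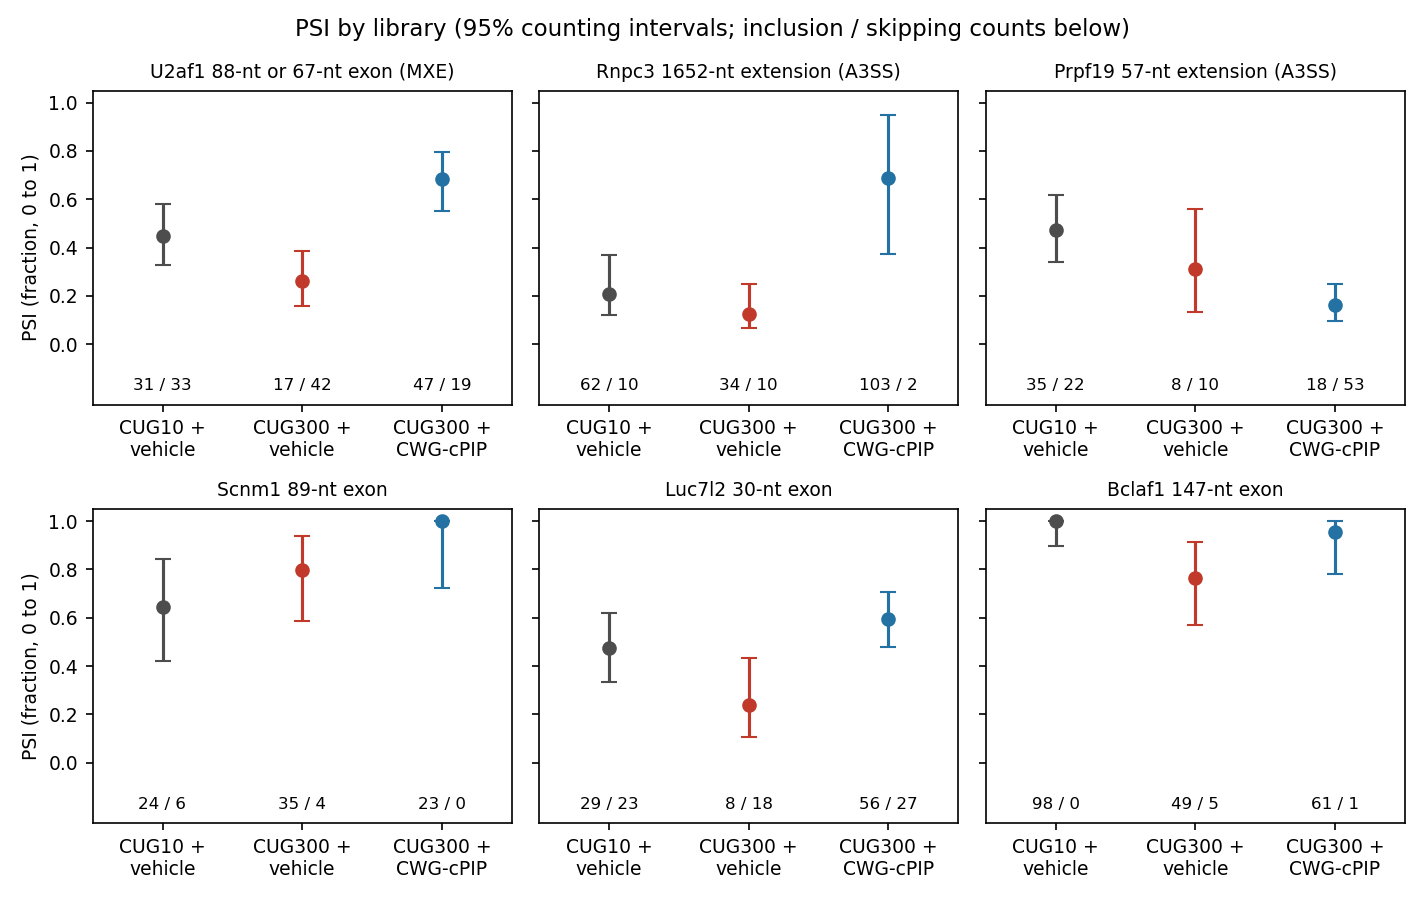
PSI (fraction from 0 to 1) of the 6 member events past the size rule in at least 1 comparison, by library, as points with 95% Clopper-Pearson intervals for counting error and with inclusion and skipping counts printed below. CUG300 + vehicle is lowest for U2af1 (0.261), Luc7l2 (0.24), Rnpc3 (0.127) and Bclaf1 (0.766), and lies between the other libraries for Prpf19 (0.311) and Scnm1 (0.799). In the U2af1 event, 32, 46 and 31 reads contained both exons of the listed pair.

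Counted over the members, the pair of vehicle libraries listed 21 events, of which 13 in 6 genes met the depth minimum. The size rule was passed by 1 with higher PSI in CUG300 + vehicle (Scnm1) and by 3 with lower PSI (U2af1, Luc7l2 and Bclaf1). The U2af1 event was the one whose listed pair of exons was joined by 32, 46 and 31 reads in the 3 libraries. Over all 2526 events of that depth, 3.01% were higher and 6.33% lower. The median absolute difference was 0.064 for the 13 events and 0.041 for all. In each comparison the member events include several of U2af1 that share reads, so they are not separate measurements. An exact test of the reads of the libraries (Fisher, two-sided, Benjamini-Hochberg adjusted within event type, with the same size threshold), which compares 2 libraries and not the conditions, passed 0.16% of 6263 listed events. It is given for all events as a background only, and no call from it is given for a member, since the members were chosen on these values.

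From CUG300 + vehicle to CUG300 + CWG-cPIP, 19 member events were listed and 14 in 6 genes met the depth minimum. The size rule was passed by 5 with higher PSI (U2af1, Rnpc3, Scnm1, Luc7l2 and Bclaf1) and by none with lower PSI, beside 7.92% higher and 3.38% lower among all 2514 events. The U2af1 event was again the one whose listed exons were joined by 32, 46 and 31 reads, so its PSI does not measure a choice between them. The median absolute difference was 0.072 beside 0.043. The exact test passed 0.389% of 6679 listed events. From CUG10 + vehicle to CUG300 + CWG-cPIP, 18 were listed and 13 in 7 genes met the minimum. Of these 2 were higher (Rnpc3 and Scnm1) and 1 lower (Prpf19), beside 4.78% and 3.78% of 3096 events, with medians of 0.107 and 0.047. The exact test passed 0.115% of 6983 listed events. The 3 comparisons share libraries, and the members were chosen on them, so nothing is read from these shares. Just inside the size threshold were Scnm1 (0.15), Bclaf1 (0.19) and Prpf19 (-0.31) in the 3 comparisons in turn, and just outside it were U2af1 events at -0.09 and -0.08 and the Luc7l2 exon at 0.12.

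**Figure D3:**
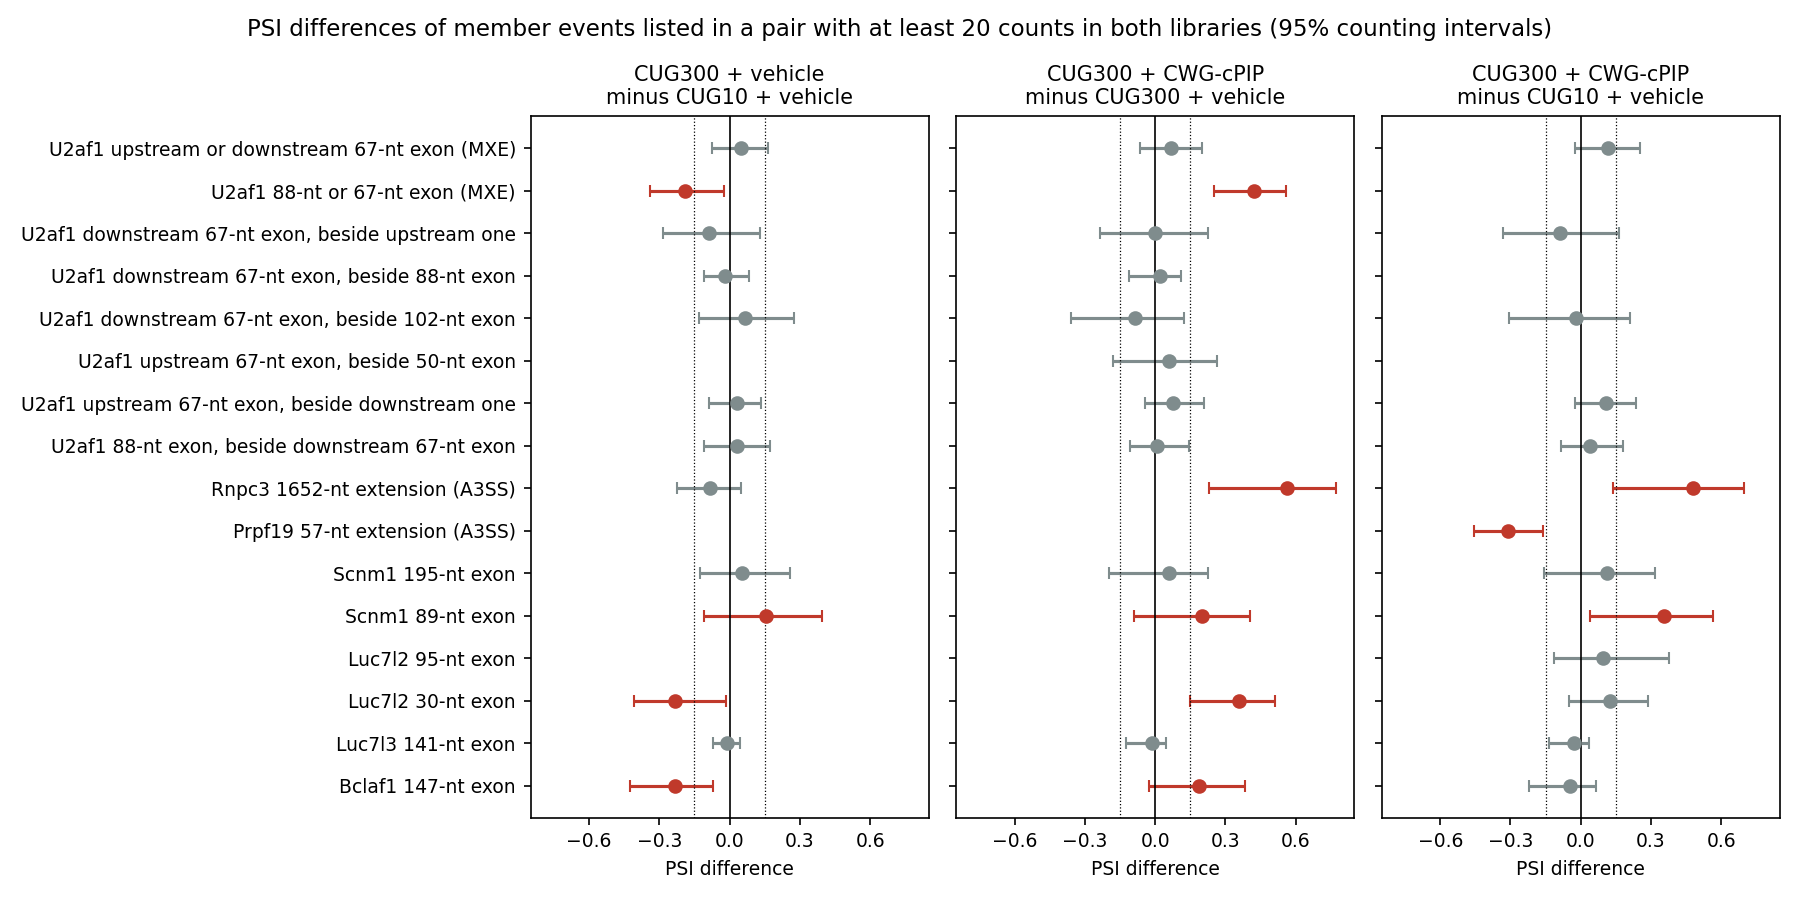
PSI differences of member events in each comparison, as points with 95% Newcombe intervals for counting error, for events listed in the pair with at least 20 counts in both libraries, with dotted lines at -0.15 and 0.15 and red points beyond them. Rnpc3 (0.56) and U2af1 (0.42) lie farthest to the right in the middle panel, CWG-cPIP against vehicle in CUG300 mice, and Prpf19 (-0.31) is the only red point to the left in the panel with CUG10 + vehicle as the reference for CWG-cPIP. The U2af1 point compares the 88-nt and downstream 67-nt exons, which 32, 46 and 31 reads contained together.

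Levels at these events also differed between the libraries. Counts at the deepest event of a gene, in CPM over the 7659 events, count each read once but are not expression values, since they cover 1 stretch of a transcript. Of the members, 3 were highest in CUG300 + vehicle. U2af1 was at 131 (104 to 163), 208 (172 to 249) and 130 (102 to 164). Scnm1 was at 115 (89.5 to 145), 220 (183 to 262) and 82 (60.1 to 109), and Luc7l3 at 302 (260 to 349), 391 (341 to 446) and 189 (155 to 229).

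The other 5 genes were lowest in that library. So was the median count per event over all events with counts in all 3 libraries (22, 13 and 24). The share of all genes highest or lowest there was not computed, so nothing is read from these numbers of members. Prpf19 was at 93.5 (70.8 to 121), 31.7 (18.8 to 50.1) and 127 (98.9 to 160), and Luc7l2 at 85.3 (63.7 to 112), 45.8 (29.9 to 67.1) and 148 (118 to 184). Rnpc3 was at 118 (92.4 to 149), 77.5 (56.3 to 104) and 187 (153 to 227), Bclaf1 at 161 (131 to 196), 95.1 (71.5 to 124) and 111 (84.8 to 142), and Luc7l at 18 (9.01 to 32.3), 10.6 (3.88 to 23) and 64.2 (45 to 88.9). Between the vehicle libraries the intervals were apart for U2af1, Scnm1, Prpf19 and Bclaf1. Summed over all events of a gene, they were apart for Luc7l2 as well (123, 96.8 to 154, against 58.1, 40 to 81.6). From CUG300 + vehicle to CUG300 + CWG-cPIP they were apart for every gene but Bclaf1. The share of all genes with intervals apart was not computed either, so nothing is read from the number of members with intervals apart.

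The events lie at different distances from the 3′ end of their transcripts. In the annotated coding transcripts, 651 spliced bases follow either 67-nt exon of U2af1 and 348 follow the 195-nt exon of Scnm1. The distance was 571 to 3795 bases for the Luc7l3 exon, the other gene highest in CUG300 + vehicle. Of the genes lowest there, it was 1467 to 1510 bases for Luc7l2 and 425 to 2661 for Bclaf1. For Prpf19 it was 5696 bases, from the 1 transcript that holds the extension. For Rnpc3 it was 581 bases, counted from the downstream end of the 1652-nt segment. For the deepest event of Luc7l, which is in no coding transcript, it was 1505 bases in a retained-intron transcript. The ranges of the groups overlapped. The part of this distance in the levels was not tested.

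**Figure D4:**
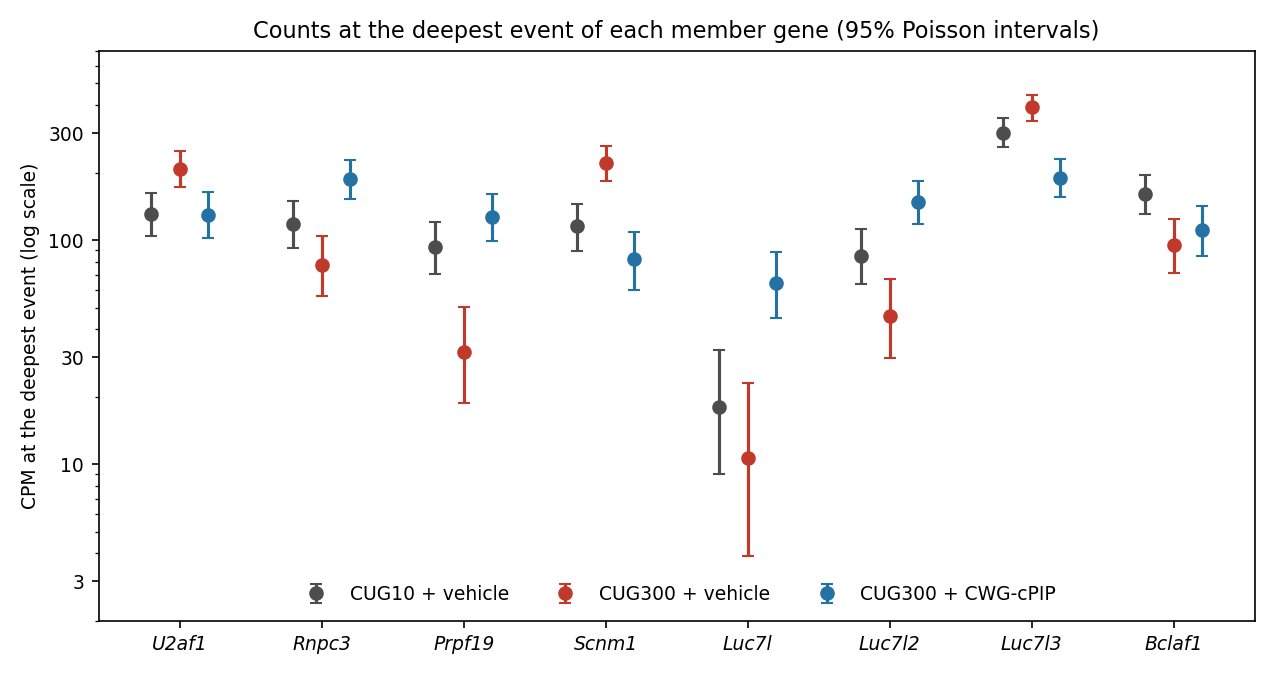
Counts at the deepest event of each member gene in CPM (log scale), by library, as points with 95% Poisson intervals for counting error. CUG300 + vehicle is highest for U2af1 (208), Scnm1 (220) and Luc7l3 (391) and lowest for Rnpc3, Prpf19, Luc7l, Luc7l2 and Bclaf1.

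The other genes of the splicing machinery were followed through 128 genes in 6 groups. Between the vehicle libraries 44 events of 28 of these genes were listed and 33 met the depth minimum. Past the size rule, 0 were higher and 3 lower, beside 3.01% higher and 6.33% lower among all events of that depth. The median absolute difference was 0.041, the same as over all events of that depth. The events are named as a description, and nothing is read from their number. The 3 lower events were 2 exons of Rnps1, a protein deposited with exon junction complexes, and 1 of Puf60, which acts with U2AF at the 3′ splice site. The 181-nt exon of Rnps1 was at 0.692 in CUG300 + vehicle and 0.93 in CUG10 + vehicle, a difference of -0.24 (-0.48 to -0.02), and the 51-nt exon of Puf60 at 0.479 and 0.687, a difference of -0.21 (-0.44 to 0.05).

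From CUG300 + vehicle to CUG300 + CWG-cPIP, 53 events of 37 genes were listed and 31 met the minimum. Of these, 3 were higher and 2 lower, beside 7.92% and 3.38% of all events of that depth, with a median of 0.049 beside 0.043. The higher events included 2 overlapping segments of Snrnp70, which are not separate measurements. A 1360-nt exon of Snrnp70, which encodes the U1-70K protein of U1 snRNP, was at 0.366 in CUG300 + CWG-cPIP and 0.151 in CUG300 + vehicle, a difference of 0.22 (0.10 to 0.32). A mutually exclusive 122-nt exon of Rnps1 differed by -0.21 (-0.36 to -0.06) and a 69-nt exon of Txnl4a, a protein of the U5 particle, by 0.26 (0.045 to 0.45). A 638-nt extension in Sf1, the branch point binding protein, differed by -0.17 (-0.42 to 0.18). From CUG10 + vehicle to CUG300 + CWG-cPIP, 47 events of 31 genes were listed and 29 met the minimum. Of these, 1 was higher (Txnl4a, 0.22, 0.01 to 0.41) and 2 were lower (Rnps1, -0.24, -0.43 to 0.01, and Puf60, -0.17, -0.35 to 0.05). Among all events of that depth 4.78% were higher and 3.78% lower, and the median was 0.07 for the listed genes beside 0.047 for all.

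Repeat content was a property that the choice of genes did not use. CWG-cPIP is directed at CAG/CTG repeats, and the longest uninterrupted CAG or CTG run in any annotated transcript of a member was 2 units in U2af1, Rnpc3, Scnm1, Luc7l and Bclaf1 and 3 units in Prpf19, Luc7l2 and Luc7l3. Of 55341 annotated genes, 70.0% had a run of at least 2 units, 14.9% of at least 3 and 3.19% of at least 4. These shares cover annotated genes of every type, not only genes with an event, and were not matched for the length or number of transcripts. Introns were not searched.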

How the data were processed

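RNA from the hippocampus of 3 mice was sequenced by the authors from directional libraries. Per the labels and the study's methods, reads were trimmed with Trim Galore 0.6.6, aligned to mm10 with STAR 2.7.9a, and splicing was tabulated with rMATS, 1 table per event type and pair of libraries (15 tables). The deposited counts of inclusion and skipping reads (junction and exon reads) per event were used. The deposited PSI values, fractions computed by the authors from counts over form lengths, were recomputed from these counts (largest deviation 0.0005). The deposited p-value, FDR and difference columns hold the authors' own comparisons and were not used, and the authors' expression processing (RSEM 1.3.3, DESeq2 1.36.0) was not analysed here. A skipping form of 74 nt corresponds to reads shorter than the methods state, and this was not resolved.

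The 8 genes and all lists were chosen with earlier results of these data known. Counts of a library that stood in 2 tables were identical in 14737 of 14737 instances. PSI intervals were Clopper-Pearson, intervals of differences Newcombe (from Wilson bounds), and intervals of totals Poisson, all 95%. With 1 mouse per group, intervals cover counting error only. Reads carry no molecular identifiers, so copies of 1 molecule cannot be told from separate molecules, and the intervals do not allow for such copies. Fisher's exact test was run on every listed event, adjusted by the Benjamini-Hochberg method within event type, and was tested on simulated data. It serves as a background over all events and is not read for the members. Gene totals were planned as sums over the events of a gene, but these count shared reads repeatedly, so the total of the deepest event is the one given. Named events were those with at least 20 counts in all 3 libraries or past the size rule, and the deepest event otherwise. From the lists, up to 4 events per comparison (1 per gene) were named, by distance of the interval from 0. Minimum counts of 10 and 50, sizes of 0.1 and 0.2, and raw shares were tried as alternatives. Python 3.11.15, scipy 1.17.1, numpy 2.4.6 and pandas 2.3.3 were used, with GENCODE M21 for annotation.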

Additional observations from a re-analysis of the deposited data

How the results depend on the processing

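With 1 mouse per group no replicate could be left out. No paired analysis was possible because each group holds 1 library. Of the member events past the size rule between the vehicle libraries (4), 2 remained in number at a minimum of 50 counts, 2 at a size of 0.2 and 2 on raw read shares without the length term. From CUG300 + vehicle to CUG300 + CWG-cPIP (5), the number was 2 at a minimum of 50 counts and 3 on raw shares. From CUG10 + vehicle to CUG300 + CWG-cPIP (3), it was 7 at a size of 0.1. Of the list events, the 3 between the vehicle libraries became 6 at a size of 0.1 and 1 on raw shares, the 5 from CUG300 + vehicle to CUG300 + CWG-cPIP became 2 on raw shares, and the 3 from CUG10 + vehicle to CUG300 + CWG-cPIP became 8 at a size of 0.1 and 1 on raw shares. A minimum of 10 counts gave 5, 6 and 4 member events. An alternative chosen after seeing the data, without the 4 U2af1 events that need the junction of the 88-nt to the 50-nt exon, gave 3, 4 and 3 member events, so U2af1 then had none past the size rule. Shares over all events are given for the main rule only, so nothing is read from the numbers under the alternatives. None of the member differences past the size rule reversed its sign without the length term, but those of Rnpc3 shrank to 0.21 and 0.12, those of Bclaf1 to -0.09 and 0.08, and those of the Scnm1 89-nt exon to 0.10, 0.10 and 0.20. Depth limits every value: 9 of 22 member events did not hold 20 counts in each of 3 libraries.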
